A study of Homo sapiens with 8 samples.

Results

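Type II cadherins are transmembrane proteins that hold cells together through calcium-dependent binding of their extracellular domains, while their cytoplasmic tails bind catenins that link them to actin. They are best known for sorting cells in the embryo and the nervous system, where related family members bind themselves and each other with graded strength. Most of their genes lie in a few clusters in gene-poor DNA. When such DNA is copied was followed here for 10 of the genes in a human epithelial cell line: CDH6, CDH9, CDH10, CDH12 and CDH18 on chromosome 5, CDH8 and CDH11 on chromosome 16, and CDH7, CDH19 and CDH20 on chromosome 18. They were taken by name, and all deposited fragments inside their RefSeq GRCh38 gene bodies were collected. They are 10 of 19970 protein-coding genes on chromosomes 1 to 22 and X, and 39352 of 26148975 fragments fell in them.

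The fragments come from scEdU-seq, in which cells take up the thymidine analogue EdU during a short pulse and the labelled, newly copied DNA of each sorted cell is sequenced. The cells were RPE-1 hTERT, retinal pigment epithelial cells made immortal with telomerase, either CFAP20-KO or WT, and both genotypes received the same 15 min pulse of 10 µM EdU and no other treatment. CFAP20 is a cilia- and flagella-associated protein, and the study concerned arrested RNA polymerase II in the way of replication forks. The sources used here state neither the number of KO clones nor whether the 8 plates were separate cultures, so p-values measure the spread between plates, which may be technical. Labelled DNA holds no expression, so neither the cell type nor the loss of CFAP20 was checked from marker genes. Each of the 8 plates carried both genotypes, with 1429 KO and 1594 WT wells in all and 1746074 to 4181841 fragments per plate. Cells with at least 1000 autosomal molecules were used, 1140 KO and 1290 WT, holding 8232 ± 1834 molecules per KO cell and 11051 ± 2709 per WT cell (mean of plate means, SD, n = 8). No cell name was shared between plates.

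Cells early and late in S phase label different DNA, which allows them to be ordered from 0 (early) to 1 (late) by the regions they labelled. KO cells lay slightly later in this order than WT cells on average, at 0.518 ± 0.0214 against 0.485 ± 0.0198 (SD, n = 8). The timing of a gene is the mean position of the cells that labelled it, weighted by their molecules. As general background, DNA that is rich in active genes tends to be copied early, and gene-poor DNA, much of it held at the nuclear lamina, tends to be copied late.

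The starts of these genes carried unequal numbers of CpG dinucleotides. RefSeq promoter windows (GRCh38.p14) were matched by symbol for 8 of the 10 genes, 14 windows in all, and the 250 bases before each start were read. Their median GC content was 48.2% with 8 CpG, against 62.0% and 16 CpG over 22155 windows of protein-coding genes. The motif TATAAA on either strand was found in 7.14% of the cadherin windows and in 9.0% of all windows. The windows below belong to 4 of the 5 genes whose timing changed along or around the gene body, and CpG is in capitals. The other, CDH12, has 3 windows with 1, 9 and 10 CpG that are not printed. Of the 3 CDH18 windows 2 are printed, and of the 2 CDH8 windows 1. The unprinted CDH18 window, from 19886273, has 3 CpG, and the unprinted CDH8 window has 17. CDH18 is shown at its outermost start, which has 4 CpG, and at a start deep inside the gene, which has 15 and lies in the earliest stretch of the gene. CDH10 has 10 CpG, CDH8 has 19 and CDH20 has 7.
CDH18 (chr5:20575714-20575963, minus strand): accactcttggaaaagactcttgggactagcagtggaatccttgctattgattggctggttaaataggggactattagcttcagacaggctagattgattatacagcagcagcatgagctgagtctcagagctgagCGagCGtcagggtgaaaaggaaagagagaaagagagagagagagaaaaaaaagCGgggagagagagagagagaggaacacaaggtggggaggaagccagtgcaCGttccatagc
CDH18 (chr5:19988201-19988450, minus strand): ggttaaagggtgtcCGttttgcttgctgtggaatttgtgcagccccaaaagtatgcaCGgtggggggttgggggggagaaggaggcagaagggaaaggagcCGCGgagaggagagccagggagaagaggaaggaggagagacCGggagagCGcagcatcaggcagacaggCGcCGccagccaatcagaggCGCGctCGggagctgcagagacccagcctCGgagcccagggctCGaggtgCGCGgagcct
CDH10 (chr5:24644979-24645228, minus strand): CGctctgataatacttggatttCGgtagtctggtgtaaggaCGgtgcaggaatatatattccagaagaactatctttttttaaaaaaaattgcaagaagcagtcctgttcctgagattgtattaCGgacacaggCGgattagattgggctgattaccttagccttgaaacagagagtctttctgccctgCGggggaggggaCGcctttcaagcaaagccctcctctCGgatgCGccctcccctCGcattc
CDH8 (chr16:62036439-62036688, minus strand): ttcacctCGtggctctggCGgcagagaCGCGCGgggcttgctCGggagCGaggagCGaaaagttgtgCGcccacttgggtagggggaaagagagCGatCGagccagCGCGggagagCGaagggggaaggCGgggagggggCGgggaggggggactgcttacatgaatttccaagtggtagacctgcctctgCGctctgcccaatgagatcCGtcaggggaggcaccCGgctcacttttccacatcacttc
CDH20 (chr18:61333180-61333429, plus strand): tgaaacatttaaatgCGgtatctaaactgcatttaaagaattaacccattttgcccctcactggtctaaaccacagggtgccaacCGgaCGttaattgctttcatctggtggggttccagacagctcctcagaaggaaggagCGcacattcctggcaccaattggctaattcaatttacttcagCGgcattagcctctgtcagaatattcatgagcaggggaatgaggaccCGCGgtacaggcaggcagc

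Of the genes, 9 were copied later than the median gene and CDH6 earlier. CDH6, a cadherin of kidney and neural crest, was labelled at 0.175, 0.211 and 0.303 (lowest, median and highest of 8 plates), a mean of 0.228 ± 0.0483 (SD, n = 8), which is later than 41.1% of the 8975 genes measured, those holding 10 or more molecules on each plate. CDH20, a cadherin of developing neural tissue, lay in the middle at 0.480, 0.573 and 0.651, with a mean of 0.580 ± 0.0558. CDH18, a brain cadherin, followed at 0.658, 0.675 and 0.707, with a mean of 0.680 ± 0.0192. The ranges of these 3 genes did not overlap.

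The other 7 genes formed a late group. CDH8, expressed in developing brain circuits, was labelled at 0.725, 0.797 and 0.855, with a mean of 0.789 ± 0.0409. CDH10 averaged 0.806 ± 0.0255, CDH9 averaged 0.830 ± 0.0378 and CDH12 averaged 0.833 ± 0.0309, all of them cadherins of neurons. CDH19, known from Schwann cell precursors, averaged 0.860 ± 0.0583. CDH11, the osteoblast cadherin, also averaged 0.860 ± 0.0366. CDH7 was the latest at 0.827, 0.878 and 0.935, with a mean of 0.877 ± 0.0401, later than 99.8% of genes.

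Between plates, the early end of this order was better separated than its late end. CDH20 was later than CDH6 by 0.352 ± 0.0478, CDH18 later than CDH20 by 0.0997 ± 0.0530 and CDH8 later than CDH18 by 0.109 ± 0.0440, each in 8 of 8 plates (SD of the plate differences). CDH10 was later than CDH8 in 6 of 8 plates, by 0.0177 ± 0.0295, and CDH9 later than CDH10 in 8 of 8, by 0.0240 ± 0.0174. CDH12 and CDH9 differed by 0.00315 ± 0.0164. CDH19 was later than CDH12 in 6 plates, CDH11 later than CDH19 in 4 and CDH7 later than CDH11 in 4, so neighbours from CDH9 to CDH7 did not differ beyond the spread between plates. With each cell counted once per gene, CDH20 at 0.527 and CDH18 at 0.528 were level, and CDH10 was the latest gene at 0.694.

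**Figure D1:**
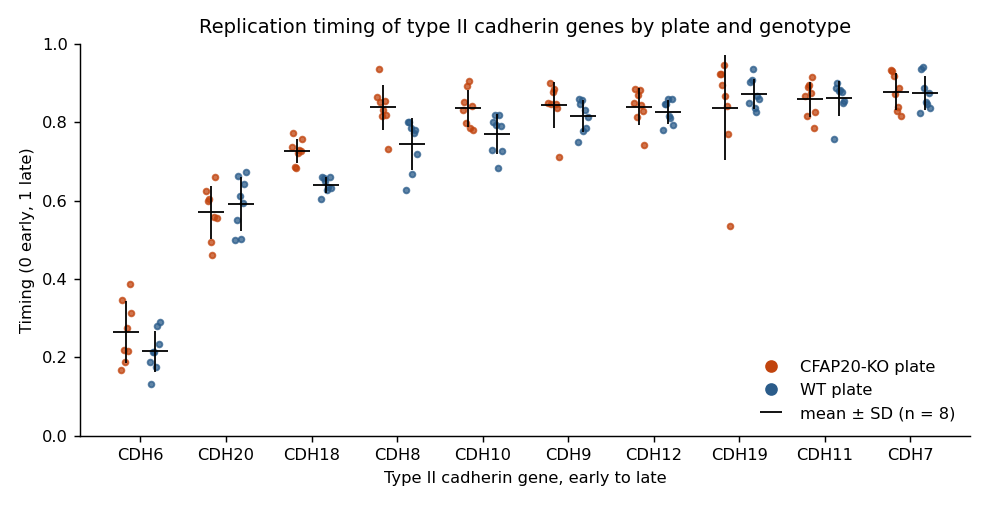
Timing of each gene (0 early, 1 late) in the CFAP20-KO cells (left, orange) and the WT cells (right, blue) of every plate, with genes in order of their mean timing. Bars are the mean ± SD over 8 plates. CDH6 averages 0.264 in KO cells and 0.216 in WT cells, and CDH20 and CDH18 lie in the middle. Means of the other 7 genes run from 0.836 to 0.878 in KO cells and from 0.745 to 0.875 in WT cells. The lowest plate value among these 7 is 0.536, for CDH19 in KO cells.

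Set beside all genes, the cadherins were late as a group. Their median timing was 0.816 ± 0.0332, against 0.271 ± 0.0339 for all 8975 genes measured, a difference of 0.546 ± 0.0523 (SD, n = 8 plates). Among 3250 measured genes of 100 kb or more the median was 0.312 ± 0.0269. Of the 10 cadherins 70.0% were later than 0.75, against 6.32% of all genes and 9.11% of the long ones. The genes were picked by name with earlier results of these data known, so this difference is a description.

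The spread of the label over S phase also differed between some of the genes. In CDH7, 88.0% of the molecules came from cells in the last 5 of 20 equal steps of the order, and 53.4% from the very last step (the second a mean over plates). CDH19 and CDH11 shared this shape, with 49.0% and 47.7% in the last step. CDH9 peaked one step earlier, with 36.8% in step 19 and 12.2% in step 20, and CDH8 and CDH10 were flat over the last 3 steps, at 19.3% to 22.2% and 16.3% to 22.8%. CDH18 peaked in step 18 with 22.3% and fell to 4.70% in the last step, and it held a small early share, 5.32% in step 3. CDH20 had 2 broad humps, 7.81% in step 3 and 14.4% in step 17. CDH6 was labelled early, with 74.1% of its molecules in the first 5 of the 20 steps and a peak of 25% in step 2.

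**Figure D2:**
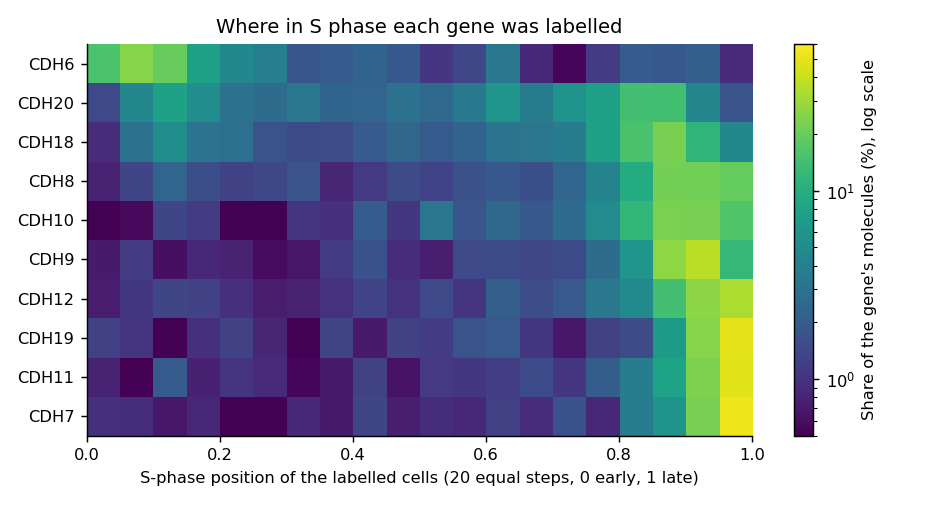
Share of each gene's molecules (%, log colour scale, mean over 8 plates) in 20 equal steps of the S-phase order, from early (left) to late (right). CDH6 is bright at the left edge, and CDH20 and CDH18 have a small early rise and a larger late one. CDH7, CDH11 and CDH19 have 47.7% to 53.4% of their label in the last step.

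Across the 20 steps the profiles of CDH11 and CDH19 had a Pearson correlation of 0.997, those of CDH7 and CDH11 of 0.996 and those of CDH8 and CDH10 of 0.987, although CDH11 lies on another chromosome than CDH7 and CDH19, and CDH8 on another than CDH10. CDH20 and CDH18 correlated at 0.866. All profiles come from the same cells, so these values describe likeness only. Among genes on other chromosomes, 50 kb or longer and with 50 or more molecules on each plate, the profiles most like CDH6 included those of TNIK (0.995) and GCOM1 (0.995). Those most like CDH7 were FAM135B (0.999), SGCD (0.999) and GRM7 (0.999), a sarcoglycan and a glutamate receptor gene among them.

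Other adhesion genes ranged from early to late. Of the 3 remaining type II genes, CDH5 of blood vessels lay at 0.232 ± 0.147, CDH22 at 0.280 ± 0.04997, and CDH24 had too few molecules. Measured type I cadherins ran from CDH1, the epithelial E-cadherin, at 0.194 ± 0.0427 to CDH4 at 0.594 ± 0.0173. Desmosomal cadherins ran from DSG3 at 0.234 ± 0.0491 to DSC3 at 0.485 ± 0.0920, and a mixed group of other cadherins from CDH17 at 0.186 ± 0.0298 to CDH26 at 0.643 ± 0.0453. Catenins and their partners ran from CTNNA1, the epithelial alpha-catenin, at 0.187 ± 0.0558 to CTNNA2, the neuronal one, at 0.831 ± 0.0333. CTNNA2 therefore lay close to CDH9 and CDH12 in timing.

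Label density lay slightly above the autosomal average in 9 genes and below it in CDH6. CDH6 carried 7.09 molecules per kb summed over plates, and CDH8 11.6, CDH7 11.8 and the other 7 genes 9.85 to 10.9. On the log2 scale relative to the autosomes, CDH6 stood at -0.31 ± 0.23 and was below 0 in 8 of 8 plates. CDH8 stood at 0.38 ± 0.20, and CDH8, CDH11, CDH18 and CDH20 were above 0 in every plate. The median of the 10 genes was 0.25 ± 0.15, against -0.15 ± 0.08 for all genes and -0.04 ± 0.06 for genes of 100 kb or more (SD, n = 8). With each cell scaled to the same total the median of the 10 was 0.18, CDH9 stood at 0.10 and CDH18 at 0.12, and CDH10 at -0.07, against 0.14 without this scaling. Copy number was not measured apart from the label.

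Between KO and WT cells none of the 10 genes passed the test for timing at the level of whole genes. With each plate and genotype as a library and every library centred on its median gene, limma called 0 of 10 at an adjusted p under 0.05, while it called 18.1% of all 4839 genes tested. At an unadjusted p under 0.05, reached by 29.5% of all genes tested, there was 1, CDH18. Its timing was 0.683, 0.728 and 0.774 (lowest, median and highest) in KO cells, against 0.604, 0.643 and 0.661 in WT cells. The groups did not overlap, and KO was later in 8 of 8 plates. Levels, ranges and plate counts here and below are given before centring. Without centring the median difference over all genes tested was 0.0337, so they include a shift shared by genes at large. The uncentred difference was 0.0861 ± 0.0403 (SD of plate differences) and the centred one 0.0512 ± 0.0236 (SE), with a limma adjusted p of 0.151.

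CDH8 behaved much the same. It was labelled at 0.733, 0.843 and 0.935 in KO cells, against 0.628, 0.777 and 0.801 in WT cells, later in KO in 8 of 8 plates, with overlapping ranges. The centred difference was 0.0590 ± 0.0314 (SE, limma adjusted p 0.218). CDH10 had 0.779, 0.837 and 0.905 in KO cells and 0.682, 0.792 and 0.820 in WT cells, later in KO in 6 of 8 plates, with a centred difference of 0.0308 ± 0.0287 and an adjusted p of 0.524. Centred differences of the remaining genes ran from -0.0704 for CDH19 to 0.0136 for CDH6, with limma adjusted p of 0.201 to 0.928, and the median of the 10 was -0.0139, with 4 above 0, beside -0.00115 for all genes tested. Without centring the median was 0.0209, with 7 above 0, beside 0.0337 for all genes, and CDH7, CDH9 and CDH12 were above 0 in place of below.

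These calls depended on which cells were counted. Using only the 431 KO and 483 WT cells with at least 5000 molecules, limma called 3 of the 9 genes it could test later in KO. Of all genes tested with those cells 10.7% were called later in KO, and 26.8% in either direction. The 3 were CDH8 by 0.103 ± 0.0223 (adjusted p 0.0017), CDH18 by 0.0602 ± 0.0147 (adjusted p 0.0044) and CDH10 by 0.0667 ± 0.0221 (adjusted p 0.0294). CDH8 and CDH18 were also called later in KO without centring (adjusted p 0.0364 and 0.00815), beside 12.9% of all genes called later and 20.7% called either way. The same 2 were called later when each of 10 equal parts of the order was given the same weight (adjusted p 0.0215 and 0.0338). Beside them 4.36% of all genes were called later and 13.3% either way. Under this weighting KO and WT libraries draw equally on every part of S phase.

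The number of labelled molecules did not pass the test in any of the 10 genes either. Limma voom called 0 of 10, beside 1.46% of 9264 genes tested. An unadjusted p under 0.05 was reached by 3 of the 10, beside 12.04% of all genes tested. CDH9 held 57.2, 74.9 and 124 molecules per 1000000 in KO cells (lowest, median and highest), against 35.9, 60.4 and 87.4 in WT cells, higher in KO in 6 of 8 plates, with a log2 difference of 0.41 ± 0.18 (SE, adjusted p 0.311). CDH10 held 55.0, 68.2 and 116 per 1000000 in KO cells and 29.9, 60.6 and 87.0 in WT cells, higher in KO in 7 of 8 plates (log2 difference 0.40 ± 0.18, adjusted p 0.362). CDH18 held 387, 543 and 641 per 1000000 in KO cells and 357, 464 and 533 in WT cells, also higher in 7 of 8 (log2 difference 0.18 ± 0.09, adjusted p 0.374). The ranges overlapped for all 3. Over the 10 genes the median log2 difference was 0.14, with 6 above 0, beside -0.07 over all genes tested. KO cells lay later in the order, at 0.518 against 0.485, and the part of that shift in these differences was not tested.

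**Figure D3:**
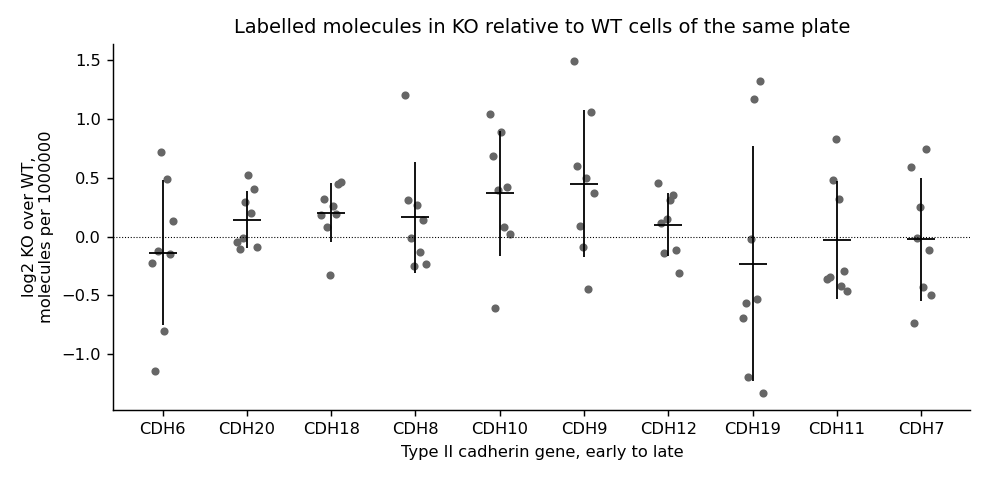
Log2 ratio of molecules per 1000000, CFAP20-KO over WT cells of the same plate, for each gene (points, 8 plates; bars, mean ± SD). CDH10 and CDH18 lie above 0 in 7 of 8 plates, and every gene has plates on both sides of 0.

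Timing changed along the body of 4 of the 10 genes. Among genes of 100 kb or more, limma called a difference between the upper-coordinate and the lower-coordinate 0.5 of the gene in 4 of 10 cadherins, beside 28.9% of 3168 genes. The largest was in CDH20, at 0.511 ± 0.0453 in the upper part, against 0.663 ± 0.0662 in the lower part, a difference of -0.152 ± 0.0170 (SE, adjusted p 1.7e-05), negative in 8 of 8 plates. CDH20 is transcribed towards higher coordinates, so its end was copied before its start. CDH18 had 0.711 ± 0.0164 in the upper part and 0.649 ± 0.0352 in the lower part, a difference of 0.0624 ± 0.0165 (adjusted p 0.0114), positive in 8 plates. With cells of at least 5000 molecules that call was lost (0.0257, adjusted p 0.112).

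CDH10 had 0.778 ± 0.0331 in its upper part, where it starts, and 0.837 ± 0.0257 in its lower part, a difference of -0.0595 ± 0.0157 (adjusted p 0.0114), negative in 8 plates. CDH12, a gene of 1103 kb, had 0.854 ± 0.0373 in the upper part and 0.812 ± 0.0279 in the lower part (difference 0.0425 ± 0.0144, adjusted p 0.0423), positive in 8 plates. The CDH12 call was lost on leaving out any 1 of plates 1 to 7, with adjusted p of 0.0577 to 0.105. CDH6, CDH7, CDH8, CDH9, CDH11 and CDH19 had differences of -0.0302 to 0.0251 and were not called.

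Against the 100 kb on each side, 3 gene bodies stood apart, beside 15.8% of 5952 genes of 50 kb or more. CDH18 was labelled earlier in its body, at 0.680, than in its flanks, at 0.768 ± 0.0339, with a difference of -0.0878 ± 0.0150 (SE, limma adjusted p 0.000591). CDH8 likewise lay at 0.789 in its body and 0.869 ± 0.0368 in its flanks (difference -0.0802 ± 0.0153, adjusted p 0.00153). Both differences were negative in 8 of 8 plates. CDH10 went the other way, at 0.806 in the body and 0.754 ± 0.0493 in the flanks (difference 0.0523 ± 0.0149, adjusted p 0.0251), positive in 8 plates. Its upper flank, next to the start, lay at 0.677 ± 0.0801, and the lower flank at 0.831 ± 0.0284, so the body lay between them. The CDH10 call was lost with flanks of 50 kb (0.0332, adjusted p 0.329) and without plate 1, 5, 6 or 8 (adjusted p 0.0517 to 0.0768). With flanks of 50 kb CDH12 was called instead (0.0582, adjusted p 0.0453).

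Label density in the body relative to the flanks was called for 1 gene, CDH12, beside 9.53% of genes. Its log2 ratio was 0.46 ± 0.11 (SE, limma adjusted p 0.00928), above 0 in 7 of 8 plates. Its lower flank held 3.81 molecules per kb, against 11.1 in the upper flank and 10.5 in the body, and the 100 kb interval ending at position 21700000 held 0 molecules. With flanks of 50 kb the ratio was 0.13 and the adjusted p 0.635. CDH7, at 0.27 ± 0.10 (adjusted p 0.117), was called only without plate 6 (0.35, adjusted p 0.0475).

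The clusters were then followed in 100 kb intervals, an analysis added after the data had been seen. Intervals with at least 10 molecules in every library were tested together over all autosomes, and limma called KO and WT timing apart in 21.4% of 23840 of them. Among the 47 tested intervals that overlap the gene bodies 9 were called (19.1%), all later in KO (beside 11.1% of all intervals called that way), with 4 in CDH18, 2 each in CDH12 and CDH8, and 1 in CDH10. CDH6, CDH7, CDH9, CDH11, CDH19 and CDH20 had 0 called intervals of 2 or 3 each. An unadjusted p under 0.05 was reached by 0 of their 16, beside 33.5% of all intervals tested. Leaving out 1 plate lost the call in 4 of the 9 intervals. In CDH18 these were the interval from 20000001 (without plate 1, 5 or 8, adjusted p 0.0502 to 0.0718) and that from 20200001 (without plate 3, 5, 6 or 8, adjusted p 0.0689 to 0.188). The others were the interval of CDH8 from 61900001 (without plate 1, 5 or 6, adjusted p 0.0535 to 0.0799) and that of CDH10.

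The earliest DNA in CDH18 was a narrow stretch deep inside the gene. Between 19900001 and 20000000 timing was 0.426 ± 0.0554, while the latest interval of the gene, from 20400001 to 20500000, lay at 0.807 ± 0.0273. The early interval, from 19900001, contains the internal start with 15 CpG printed above. In KO cells it was labelled at 0.410, 0.535 and 0.709 (lowest, median and highest), against 0.297, 0.340 and 0.444 in WT cells. KO was later in 7 of 8 plates, with some overlap, and the centred difference was 0.166 ± 0.0338 (SE, adjusted p 0.000348). The interval just below it, from 19800001, contains the unprinted start with 3 CpG and had a timing of 0.580 ± 0.0653. It lay at 0.587, 0.634 and 0.756 in KO cells and 0.421, 0.518 and 0.616 in WT cells. KO was later there in 8 of 8 plates (difference 0.130 ± 0.0340, adjusted p 0.00444). With equal weighting of the parts of S phase, the first of these fell to 0.0745 (adjusted p 0.0880), and the second kept its call at 0.110 (adjusted p 0.00678).

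A dip in timing within later DNA lay beside the start of CDH10. Between 24700001 and 24800000, outside the gene, timing was 0.608 ± 0.0785, and the interval over the gene's start, from 24600001, lay at 0.722 ± 0.0703. In KO cells the stretch was labelled at 0.640, 0.757 and 0.792, against 0.365, 0.488 and 0.613 in WT cells. The groups did not overlap, and the centred difference was 0.241 ± 0.0361 (adjusted p 5.09e-06). It kept its call with equal weighting (0.146, adjusted p 0.00112) and on leaving out any 1 plate. The interval over the start of CDH10, partly outside the gene, was later in KO by 0.102 ± 0.0359 (adjusted p 0.0379), a call lost with equal weighting (adjusted p 0.116) and on leaving out any 1 of plates 3 to 8 (adjusted p 0.0525 to 0.114).

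**Figure D4:**
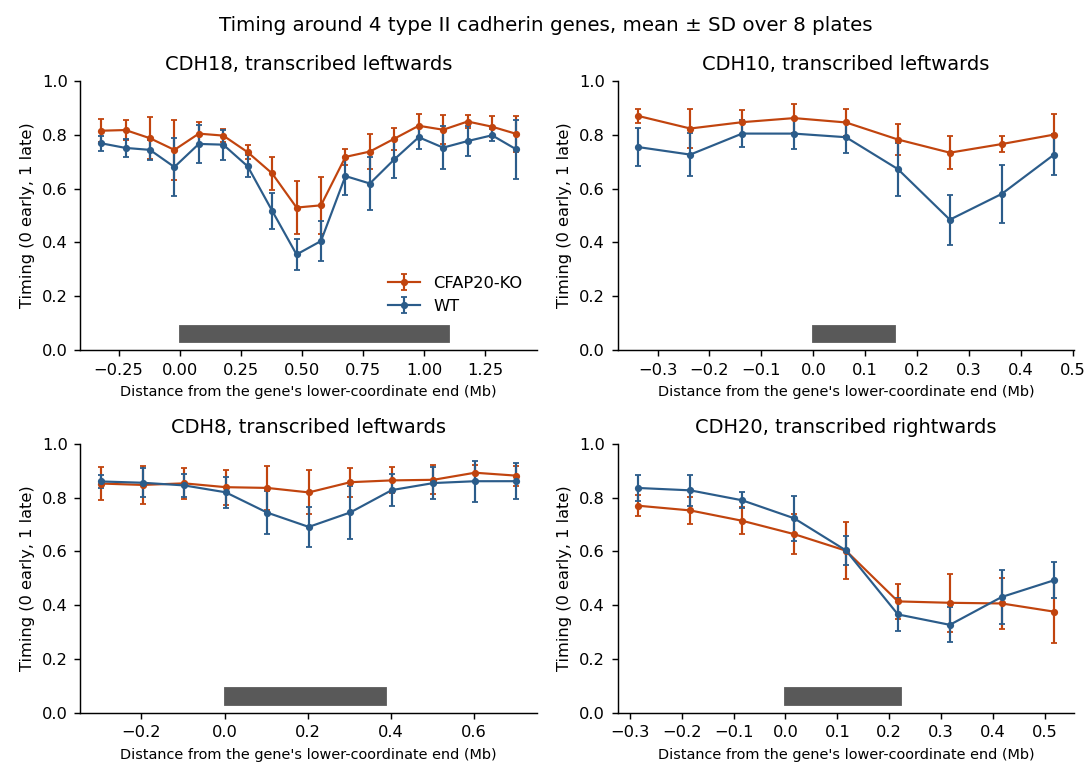
Timing (0 early, 1 late) in 100 kb intervals across CDH18, CDH10, CDH8 and CDH20 and 0.3 Mb on each side, in CFAP20-KO (orange) and WT cells (blue). Points are means and bars SD over 8 plates, and the grey bar is the gene body. KO cells dip to 0.530 in CDH18 and 0.734 beside CDH10, and WT cells to 0.355 and 0.485.

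CDH12 was also later in KO at its lower end. The interval from 21700001 to 21800000 lies partly outside the gene, which begins at 21750673. Its DNA was labelled at 0.729, 0.786 and 0.821 in KO cells, against 0.523, 0.596 and 0.683 in WT cells, with no overlap (difference 0.183 ± 0.0311, adjusted p 3.21e-05). The next interval, inside the gene, lay at 0.752, 0.838 and 0.855 in KO cells and 0.669, 0.704 and 0.748 in WT cells, again with no overlap (difference 0.112 ± 0.0298, adjusted p 0.00514). Both kept their calls with equal weighting, at cells of 5000 molecules and on leaving out any 1 plate.

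In CDH8 the middle of the gene moved. From 61800001 to 61900000 it was labelled at 0.689, 0.828 and 0.957 in KO cells, against 0.577, 0.686 and 0.806 in WT cells, later in KO in 8 of 8 plates with overlapping ranges (difference 0.120 ± 0.0344, adjusted p 0.00991). This interval had the earliest timing in CDH8, 0.749 ± 0.0633 over both genotypes, beside 0.848 ± 0.0405 in the latest. Along CDH20 timing was 0.388 ± 0.0476 in its last interval and 0.701 ± 0.0692 in its first, and 0 of its 3 intervals were called between genotypes.

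Wider stretches of the clusters were compared in 500 kb windows, each cluster reaching 1 Mb beyond its outermost cadherin. The chromosome 5 cluster spanned 14.5 Mb with 0.966 genes per Mb, the chromosome 16 cluster 6 Mb with 0.833 and the chromosome 18 cluster 8 Mb with 3.13, against 7.05 over all windows. On chromosome 5, 65.5% of windows were later than 0.75, on chromosome 16 91.7% and on chromosome 18 31.2%, against 20.9% of all autosomal windows. The earliest window on chromosome 5 lay at 0.190 ± 0.0302, holding PDZD2, GOLPH3, MTMR12 and ZFR beyond CDH6, and the latest at 0.866 ± 0.0425, between CDH9 and CDH6, where no protein-coding gene lies. On chromosome 16 the earliest, at 0.398 ± 0.0457, held CDH5, and the latest, at 0.882 ± 0.0329, lay between CDH8 and CDH11. On chromosome 18 the earliest, at 0.228 ± 0.0276, held PIGN, RELCH and TNFRSF11A beside CDH20, and the latest, at 0.875 ± 0.0416, lay just below CDH7. CDH20 and CDH6 sit at the edges of early DNA, and the other cadherins lie in mostly late stretches. Within these, CDH18 holds an interval at 0.426, and a dip to 0.608 lies beside CDH10.

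**Figure D5:**
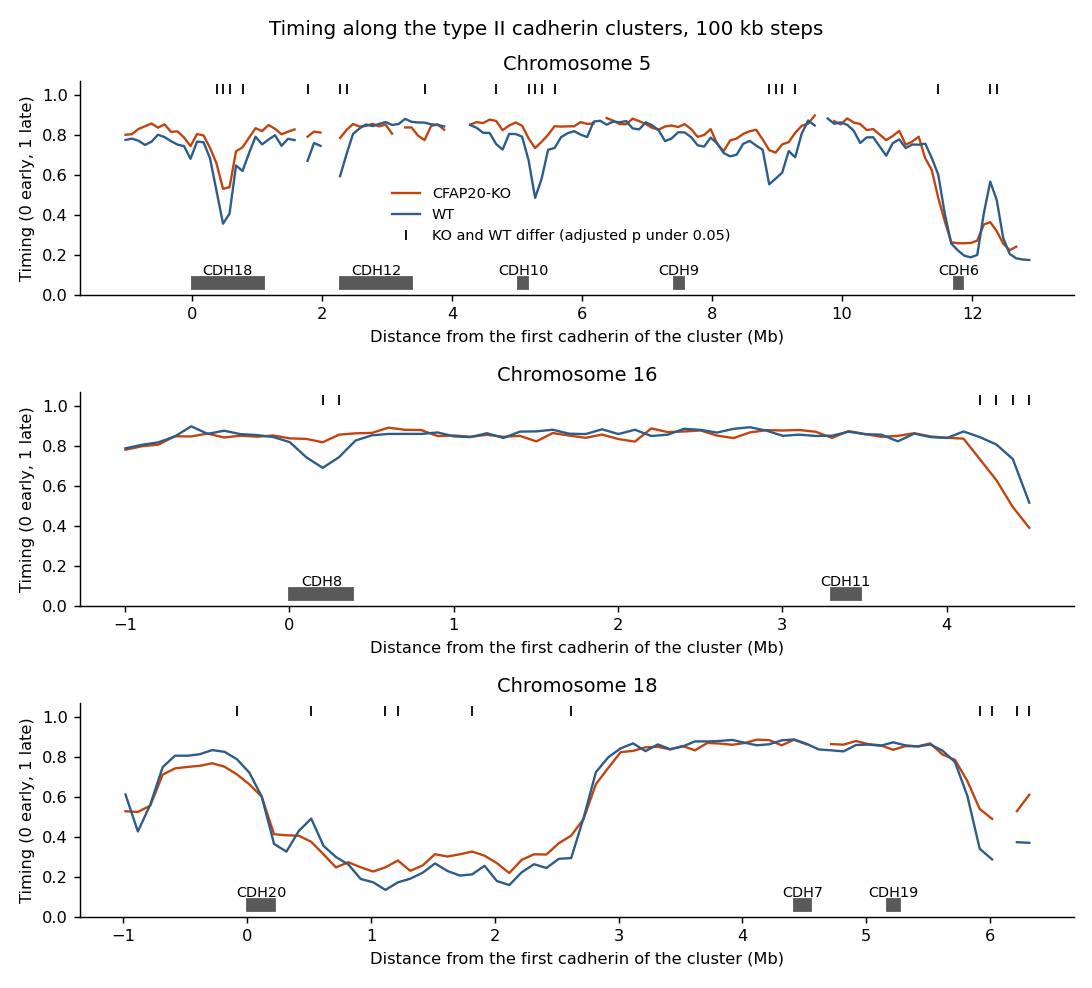
Timing (0 early, 1 late) in 100 kb intervals along the clusters on chromosomes 5, 16 and 18 in CFAP20-KO (orange) and WT cells (blue), against distance from the first cadherin. Grey bars are the 10 genes, ticks at the top mark intervals that differ by limma (adjusted p under 0.05), and gaps are intervals with too few molecules. KO lies above WT at the dips in CDH18, beside CDH10 and in CDH8, and below WT beyond CDH11.

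KO and WT windows differed in timing in 20 of 57 cluster windows, beside 39.3% of 5185 windows tested. Of all windows 25.4% were called later and 13.9% earlier in KO. On chromosome 5, 11 were later and 1 earlier in KO, on chromosome 16 1 and 2, and on chromosome 18 4 and 1. The largest difference was outside the genes, from 67500001 to 68000000 beyond CDH19, where KO cells lay at 0.642, against 0.439 in WT cells. Its centred difference of 0.197 ± 0.0215 (adjusted p 1.28e-10) ranked 16 of 5185. The window from 24500001, with CDH10, was later in KO by 0.127 ± 0.0234 (adjusted p 1.58e-05) and that from 21500001, with CDH12, by 0.122 ± 0.0214 (adjusted p 7e-06). The strongest shifts the other way were in 2 of the 100 kb intervals. Beyond CDH11, from 66000001 to 66100000, timing was 0.386, 0.498 and 0.569 in KO cells, against 0.633, 0.736 and 0.797 in WT cells (difference -0.249 ± 0.0356, adjusted p 2.32e-06). In PDZD2 beyond CDH6, from 31700001 to 31800000, it was 0.251, 0.366 and 0.485 in KO cells, against 0.493, 0.553 and 0.658 in WT cells (difference -0.212 ± 0.0338, adjusted p 1.32e-05). KO and WT plates did not overlap in either.

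Molecule numbers differed in 1 of the 57 windows, beside 5.03% of all windows. It ran from 27000001 to 27500000 and holds the start of CDH9, with a log2 difference of 0.51 ± 0.14 in KO over WT cells (limma voom adjusted p 0.0193), a call lost without plate 1 (adjusted p 0.0781) or plate 2 (adjusted p 0.119). With the plate as a term 3 were called. In the chromosome 5 cluster 25 of 29 windows had more molecules in KO cells, against 45.0% of the 320 other windows of that chromosome, and the medians of the log2 differences were 0.24 in the cluster and -0.02 outside it. On chromosome 16 7 of 12 cluster windows had more in KO, against 49.6% of the 131 others. On chromosome 18 7 of 16 had more in KO, against 64.4% of the 135 others, with medians of -0.01 in the cluster and 0.08 outside it. Neighbouring windows share cells and copies, and the part of S-phase position in this shift was not tested.

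Comparison genes moved in few cases. CDH2, the type I N-cadherin, was later in KO by 0.115 ± 0.0238 (SE, limma adjusted p 0.00137), and DSC3, a desmosomal cadherin, by 0.156 ± 0.0388 (adjusted p 0.00625). In timing 1 of 4 type I cadherins tested was called, 1 of 1 desmosomal cadherin, 0 of 1 other type II, 0 of 4 other cadherins and 0 of 8 catenins and partners. At an unadjusted p under 0.05 the same count of 2 of 18 was reached in timing, beside 29.5% of all genes tested. In molecules limma voom called 0 of the 27 genes of these lists it tested. An unadjusted p under 0.05 was reached by 6 of the 27, beside 12.04% of all genes tested.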

How the data were processed

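Positions of scEdU-seq fragments were analysed in RPE-1 hTERT cells on 8 plates. The deposited tables list 1 fragment per line, per the file headers, with its cell name, its place in base pairs, a length whose sign gives direction, and the genotype; no count or score column is given. Positions are on GRCh38, according to the submitters' processing notes. The aligner, the mapping filter and any duplicate removal are stated in none of the sources used here. Each fragment was assigned to a genotype by its treatment column, since each title names KO and WT together and the labels' genotype field reads CFAP20-KO for all plates.

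Each fragment was taken as 1 molecule; 6.35% to 8.81% of a plate's fragments repeated a position and direction of their own cell. Cells with at least 1000 autosomal molecules were ordered by the leading axis of correspondence analysis over 500 kb bins (18.8% of the variation), leaving out bins under 0.1 of the median, with the gene-rich end called early. Rank in this order, from 0 to 1, is the position of a cell. Gene bodies came from the RefSeq table of the same build. Overlapping genes share molecules; no other protein-coding gene overlapped the 10, though antisense and pseudogene entries did. Timing and its differences were tested with limma 3.58.1 in R 4.3.3 over all genes, windows or intervals that had enough molecules (at least 10 per plate or library for genes and intervals, 50 for windows), centred on each library's median between genotypes, and molecules with limma voom scaled by the total. P-values were adjusted by Benjamini-Hochberg over everything tested. Body over flank density used a pseudocount of 0.5. Because the files hold no counts, no negative-binomial model was run. The procedures were tested on simulated data with known changes.

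Plates pair KO and WT libraries by the titles. Deviations of the KO and WT libraries of a plate correlated at 0.0166 on average (-0.0472 to 0.0497 over 8 plates). The main fits had no plate term, and a fit with it is given as the replicate block.

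The members and comparison lists were chosen with earlier results of these data known. All 10 cadherins are named, and of each comparison list the earliest, the latest and any gene past a test. For CDH6 and CDH7 the 3 most alike profiles are named, apart from 1 that is not reported here, and of each cluster the earliest and latest window with its genes. The 100 kb intervals, the equal weighting of 10 parts of the order, and the comparison with all genes in the order from 200 kb bins were added after the data had been seen. RefSeq promoter windows gave 250 bases before each start. Python 3.11.15 and numpy 2.4.6 were used.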

Additional observations from a re-analysis of the deposited data

Results flagged for a closer look

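In 5 of 90 sets of 8 plate values, 1 plate stood apart from the others by Dixon's test; chance flags about 1 in 20. CDH9 timing in KO cells was 0.712 on plate 8, with the next lowest at 0.837. CDH19 timing in KO cells was 0.536 on plate 8, with the next lowest at 0.769; that value rests on 21 molecules. Timing of CDH11 in WT cells was 0.758 on plate 1, with the next lowest at 0.848. CDH10 had an upper minus lower part difference of -0.137 on plate 1, with the next at -0.0618. CDH18 had a body minus flank difference of -0.0159 on plate 8, with the next at -0.0700. Plate 8, which gave 3 of the 5, had the fewest fragments, 1746074.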

How the results depend on the processing

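Timing levels depended on how cells were counted. With cells of at least 5000 molecules 4 of the 10 genes were later than 0.75, in place of 7, and the genes' median exceeded that of all genes by 0.409. With each cell counted once per gene, 0 were later than 0.75 and that excess was 0.249; CDH6 stayed earliest, CDH20 and CDH18 became level and CDH10 replaced CDH7 as the latest. The cutoff of 300 molecules, the order from 200 kb bins, counting repeated fragments once and leaving out each plate moved neither by more than the spread between plates. KO minus WT timing was called in 3 genes with cells of at least 5000 molecules, in 2 without centring and in 2 with equal weighting of the 10 parts of S phase. With the replicate block 0 genes were called in timing, 0 in molecules, 21 cluster windows in timing, 3 in molecules and 37 intervals of 100 kb. Body over flank density was called in 0 genes with flanks of 50 kb, and in 1 to 2 on leaving out each plate. Cluster windows called in molecules numbered 2 with repeated fragments counted once and 0 to 3 on leaving out each plate. Of 257 cluster intervals 36 were called, and 82 of 217 with cells of at least 5000 molecules, beside 34.3% of all intervals at that cutoff. Of the 36, 27 kept their call with equal weighting and all 36 their direction. Cluster windows called earlier in KO numbered 4, and 2 without centring or without plate 2 or 7. Genes with an unadjusted p under 0.05 in molecules numbered 3 of 10, beside 12.04% of all genes tested, and 1 without plate 1, 2, 5 or 7. Other totals of adjusted calls stayed within 1.5 times of the reported ones, and 0 single-gene values were called with opposite signs. Genes with few molecules, such as CDH19 with 21 to 150 per library, limit what can be called.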

Other observations

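Parts of the chromosome 5 cluster held almost no molecules. The 100 kb intervals from 21600001 and from 23400001 held 0 molecules over all plates, and those from 21100001, 23500001, 29100001 and 21500001 held 3, 17, 35 and 64, while CDH12 itself held 10.5 per kb. PRDM9, a gene of 20.9 kb in one of these intervals, held 13 molecules, and DSEL, a gene of 10.1 kb beyond CDH19, held 0. The interval from 21600001 overlaps the lower flank of CDH12 that entered its body over flank density. Whether the DNA there was missing, unlabelled or removed in mapping was not tested.

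Beyond the cadherins, the early DNA between CDH20 and CDH7 held serpin genes and BCL2. The interval over SERPINB2 and SERPINB8 was later in KO cells by 0.104 (limma adjusted p 0.0276) and that over BCL2 by 0.106 (adjusted p 0.0193). Of all intervals tested 11.1% were called later in KO. Without 1 plate these adjusted p reached 0.0802 and 0.0930. Both calls were lost with equal weighting of the parts of S phase (adjusted p 0.141 and 0.105). With cells of at least 5000 molecules the first kept its call (adjusted p 0.0131), and the second could not be tested.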
